A study of Mus musculus with 14 samples.

Results

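The cluster of mmu-miR-199a-3p, mmu-miR-199a-5p and mmu-miR-214 was followed through mouse heart transplants, 3 of the 375 microRNA assays on the TaqMan rodent cards used. Members were taken by assay name alone, and all 3 were on every card. Each of the 14 arrays held the RNA of 3 pooled animals, mice of 8 to 10 weeks, so that n counts pools. Allogeneic hearts were BALB/c hearts in C57BL/6 recipients, recorded as rejected, and syngeneic hearts were C57BL/6 hearts in C57BL/6 recipients, recorded as not rejected, with 3 arrays each, taken on day 7. Normal BALB/c hearts had 1 array. Allogeneic and syngeneic graft-infiltrating lymphocytes (GIL), recovered from the same kinds of graft on day 5, had 3 arrays each. Mononuclear cells from the blood (PBMC) of untreated C57BL/6 mice had 1 array. Every rejected graft came from a BALB/c donor and every other graft from a C57BL/6 donor, so strain and rejection cannot be told apart. The labels do not say how GIL were separated from the graft.

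A microRNA is cut from a hairpin RNA, either arm of which can be kept, and it lowers the output of messenger RNAs that match its seed, bases 2 to 8. In mouse embryos the long noncoding RNA Dnm3os carries the hairpins of miR-199a-2 and miR-214, and Twist1, a factor of mesenchymal cells, drives it. In the heart these microRNAs are known mainly from fibroblasts and other mesenchymal cells. miR-199a-5p has also been studied in heart muscle as a regulator of the hypoxia response, and miR-214 as a regulator of calcium handling.

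All 3 assays were matched to RefSeq mature sequences (GRCm38.p6), the older name miR-214 to miR-214-3p. The sequences below show which RNAs the assays read and which seeds they carry, with the seed in capitals.

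mmu-miR-199a-3p: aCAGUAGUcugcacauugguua

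mmu-miR-199a-5p: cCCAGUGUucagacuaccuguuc

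mmu-miR-214: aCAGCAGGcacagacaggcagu

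The seeds of miR-199a-3p and miR-214 differ at 2 of 7 positions, those of the miR-199a arms at 4 and those of miR-199a-5p and miR-214 at 5, so no seed is shared within the cluster. mmu-miR-199b-3p, from Mir199b at chr2:32318460-32318569, has the same sequence as miR-199a-3p, so an assay for that sequence reads both. On its other arm the Mir199b hairpin also holds the letters of the miR-199a-5p seed. miR-761 has the seed of miR-214 and had no assay on the card.

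Mir199a-2 (chr1:162217814-162217923, plus strand) and Mir214 (chr1:162223368-162223477, plus strand) lie 5444 bases apart inside Dnm3os (chr1:162217623-162225550). Dnm3os in turn lies within the span of the protein-coding gene Dnm3. The same miR-199a arms also come from Mir199a-1 (chr9:21496495-21496564, minus strand), within the span of Dnm2. The chromosome 1 hairpins are printed with the assayed arms in capitals, to show that the miR-199a assays read opposite arms of the same hairpin.

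Mir199a-2: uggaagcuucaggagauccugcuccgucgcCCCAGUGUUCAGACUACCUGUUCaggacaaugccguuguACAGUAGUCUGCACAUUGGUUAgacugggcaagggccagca

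Mir214: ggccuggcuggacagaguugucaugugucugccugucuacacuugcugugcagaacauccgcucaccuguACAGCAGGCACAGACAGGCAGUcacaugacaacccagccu

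The promoter of Dnm3os (chr1:162217373-162217672, plus strand, 250 bases before its start and 50 after) is shown because Dnm3os spans both Mir199a-2 and Mir214. Capitals mark CANNTG, the E-box that factors such as Twist1 bind, and the CArG box that serum response factor binds.

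Dnm3os promoter: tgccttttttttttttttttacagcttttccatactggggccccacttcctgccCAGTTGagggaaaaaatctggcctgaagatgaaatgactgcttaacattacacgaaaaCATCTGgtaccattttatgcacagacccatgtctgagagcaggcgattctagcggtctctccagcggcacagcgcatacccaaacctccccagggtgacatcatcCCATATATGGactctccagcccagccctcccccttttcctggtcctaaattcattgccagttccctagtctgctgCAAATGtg

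It holds 3 E-boxes, beginning at -196, -138 and 42 from the gene's first base, and 1 CArG box, beginning at -33, with no overlap between the motifs. Both motifs read the same on either strand as searched. Of 32851 mouse promoters of this length, 72.3% held an E-box and 1.63% a CArG box. These are matches of letters and say nothing of binding in these samples.

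The threshold cycle (Ct) is the PCR cycle at which a well turns positive, so that more of a microRNA gives a lower Ct, and a step of 1 cycle corresponds to roughly 2-fold. Below, a level is minus the Ct after subtraction of the array's reference Ct, the mean over those microRNAs detected on all 7 arrays of the heart table (210) or of the GIL and PBMC table (137). Levels are on the log2 scale and are compared between groups, never between assays. A well counts as not detected if its Ct was undetermined or not below 35. Heart arrays detected 228 to 260 microRNA assays, and GIL and PBMC arrays detected 161 to 221. Allogeneic GIL pool 3 stood apart, with the lowest number detected and a mean reference Ct of 28.0, against 23.2 to 25.8 on the other 6 arrays of its table.

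In rejected hearts miR-199a-3p and miR-214 were both lower than in syngeneic hearts, by 3.84-fold and 3.60-fold. miR-199a-5p was read too irregularly in hearts to be tested.

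miR-199a-3p, found at Ct 21.3 to 21.7 in allogeneic hearts, at 18.4 to 20.0 in syngeneic hearts and at 20.9 in normal hearts, was detected on all 7 heart arrays. Its level was 1.53, 1.65 and 2.22 in allogeneic hearts, against 3.98, 3.39 and 3.85 in syngeneic hearts. The normal hearts stood at 2.97, between the groups. All 3 allogeneic pools lay below all 3 syngeneic pools, and allogeneic pools 1 and 2 lay lowest. The log2 fold change was -1.94 ± 0.29 (SE, n = 3 pools per group; limma adjusted p = 0.00457).

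miR-214, detected on all 7 heart arrays as well, had Ct 23.0, 21.2 and 22.9 in allogeneic hearts, against 19.2, 21.2 and 21.0 in syngeneic hearts. Its level was 0.20, 1.85 and 0.57 in allogeneic hearts, against 3.16, 2.20 and 2.80 in syngeneic hearts, and 1.46 in normal hearts. The groups did not overlap, though allogeneic pool 2 and syngeneic pool 2 lay close together. The log2 fold change was -1.85 ± 0.48 (adjusted p = 0.0288).

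Both tested members were called, that is, had an adjusted p under 0.05, in a comparison in which 32.4% of the 238 assays tested were called. Their groups did not overlap, which held for 54.2% of the assays. In order of fold change from the lowest, miR-199a-3p was number 15 and miR-214 number 18 of 238. Without any 1 of the 6 pools other than allogeneic pool 2, miR-214 lost its call (adjusted p 0.0507 to 0.0969), at log2 fold changes of -2.11 to -1.51. miR-199a-3p kept its call without any 1 pool.

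The plot of levels in hearts shows these values by pool.

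**Figure D1:**
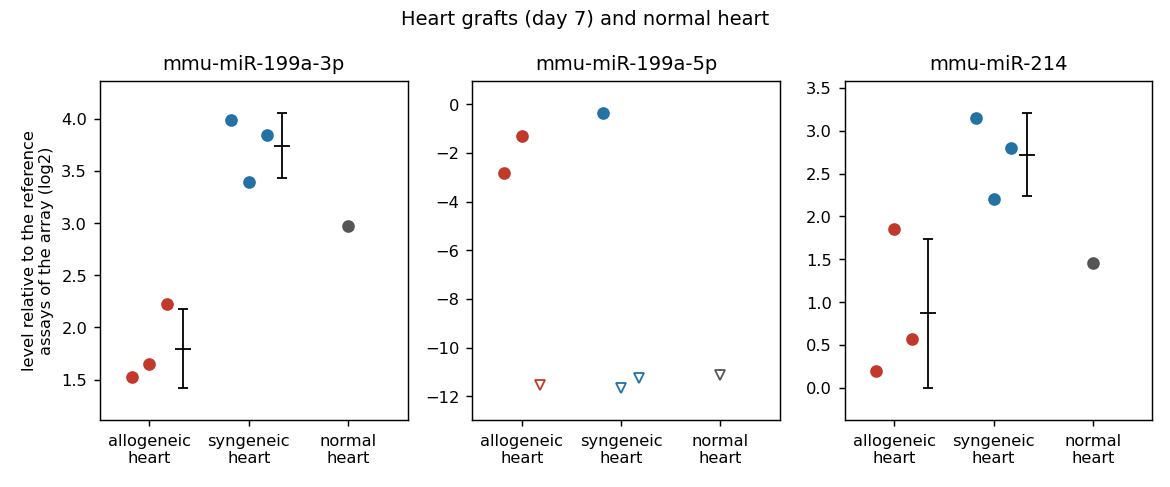
Level of each member (log2, relative to the reference assays of the array) in allogeneic, syngeneic and normal hearts. Points are arrays of 3 pooled animals, bars are mean ± SD where all 3 arrays detected the assay, and open triangles are arrays on which it was not detected, drawn at the limit. miR-199a-3p lay at 1.53 to 2.22 in allogeneic hearts and at 3.39 to 3.98 in syngeneic hearts, miR-214 at 0.20 to 1.85 and at 2.20 to 3.16, and miR-199a-5p was detected on only 3 of the 7 arrays.

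Cards were run on 5 days for the heart table, of which 2 held both an allogeneic and a syngeneic pool. On these days miR-199a-3p differed, allogeneic minus syngeneic, by -2.46 and -1.17 log2 units, and miR-214 by -2.96 and -1.63. The direction was therefore the same within each day. With run day as a fixed block, which leaves the same differences to fewer arrays, miR-199a-3p stood at -1.81 (adjusted p = 0.0889) and miR-214 at -2.30 (adjusted p = 0.0769), and 2 assays in all were called.

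miR-199a-5p, the other arm of the miR-199a hairpin, had Ct 26.0 and 24.4 in allogeneic pools 1 and 2 and was undetermined in pool 3. In syngeneic hearts it had Ct 22.8 in pool 1 and was undetermined in pools 2 and 3. Normal hearts were undetermined. It was thus detected on 2 of 3 allogeneic, 1 of 3 syngeneic and 0 of 1 normal arrays, the first allogeneic well being marked by the instrument software. Such gaps were found in other assays too: of the 178 microRNA assays with a Ct under 25 on some heart array, 17 (9.55%) were undetermined on another.

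Normal hearts were a single array, assumed in the fit to vary like the other groups. The mean levels of syngeneic and allogeneic hearts lay on either side of it. Syngeneic hearts were above the normal array for both members, with a log2 difference of 0.77 ± 0.41 for miR-199a-3p (adjusted p = 0.212) and 1.26 ± 0.69 for miR-214 (adjusted p = 0.217). Neither was called, where 19.0% of 242 assays were. In allogeneic hearts miR-199a-3p fell by 1.17 ± 0.41 relative to normal hearts (2.26-fold, adjusted p = 0.0487). This was 1 of 2 members called, where 51.9% of 241 assays were called, and 9 of 16 other settings ended the call. miR-214 differed by -0.59 ± 0.69 (adjusted p = 0.475), and the normal value lay within the allogeneic range. Both comparisons use the same normal array, whose strain is that of the allogeneic donors.

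The authors' deposited table gives relative quantities scaled to snoRNA202 with normal hearts at 1. In the authors' deposited table miR-199a-3p ran from 0.441 to 1.13 in allogeneic hearts and from 1.70 to 2.97 in syngeneic hearts. For miR-214 the authors' deposited table gives 0.502 to 1.97 in allogeneic hearts and 2.12 to 4.78 in syngeneic hearts. The groups did not overlap on that scale for either member. Over 5 other scalings of the Ct values, miR-199a-3p was lower in allogeneic hearts by 3.45-fold to 4.59-fold and called each time. miR-214 was lower by 3.23-fold to 4.30-fold, with no call when scaled to MammU6 (adjusted p = 0.0658) or to snoRNA202 (adjusted p = 0.0628).

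In cells recovered from grafts, all 3 members were lower in allogeneic than in syngeneic GIL, miR-214 by 10.9-fold and the miR-199a arms by 2.61-fold and 2.48-fold. None of the 3 overlapped between the groups.

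For miR-214 the Ct was 24.0, 24.6 and 28.9 in allogeneic GIL, against 21.7, 21.9 and 22.1 in syngeneic GIL. Its level was 0.12, 0.41 and -0.995 in allogeneic GIL, against 3.06, 3.85 and 2.96 in syngeneic GIL. The gap between the nearest pools of the groups exceeded the range within either group. The log2 fold change was -3.45 ± 0.46 (SE, n = 3 pools per group; limma adjusted p = 0.00713), and the call held without any 1 pool, allogeneic pool 3 included (-2.93 to -3.73 over the 6 fits).

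miR-199a-3p had Ct 21.6, 22.1 and 26.3 in allogeneic GIL, against 21.0, 22.3 and 21.1 in syngeneic GIL. Its level was 2.50, 2.87 and 1.66 in allogeneic GIL, against 3.71, 3.52 and 3.95 in syngeneic GIL. Before scaling, the Ct ranges overlapped, and after it they did not. The log2 fold change was -1.38 ± 0.37 (adjusted p = 0.0339).

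miR-199a-5p, irregular in hearts, was detected on all 6 GIL arrays. Its Ct was 27.9, 28.1 and 31.6 in allogeneic GIL, all 3 wells marked by the instrument software, against 27.1, 27.7 and 27.4 in syngeneic GIL. Its level was -3.76, -3.09 and -3.69 in allogeneic GIL, against -2.34, -1.88 and -2.39 in syngeneic GIL. The log2 fold change of -1.31 ± 0.29 (adjusted p = 0.0198) was close to that of the 3p arm.

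All 3 members were called where 36.3% of the 201 assays tested were called, and none overlapped where 57.7% did not. In order of fold change from the lowest, miR-214 was number 16, miR-199a-3p number 55 and miR-199a-5p number 58 of 201.

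**Figure D2:**
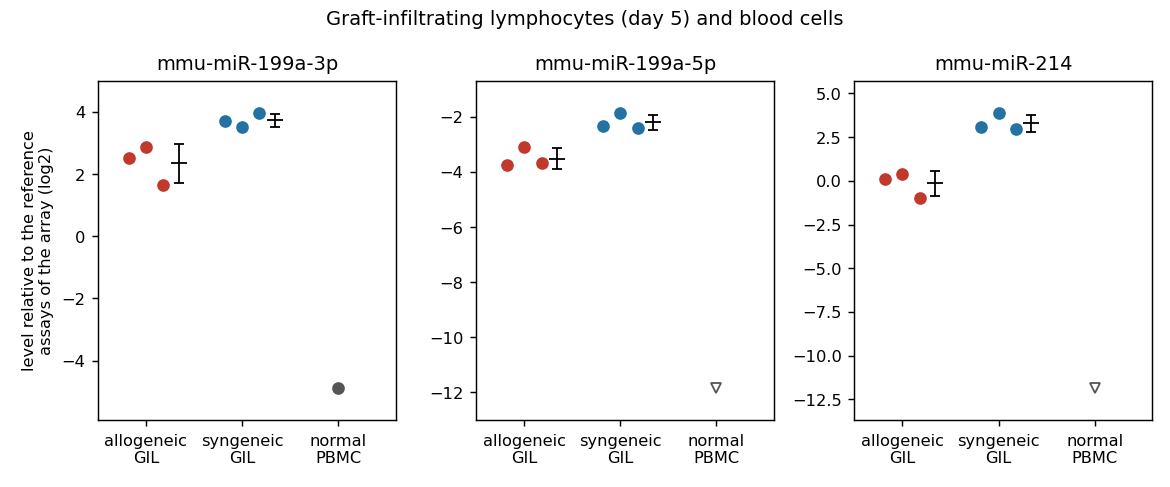
Level of each member (log2, relative to the reference assays of the array) in allogeneic GIL, syngeneic GIL and PBMC. Points are arrays of 3 pooled animals, bars are mean ± SD over 3 arrays, and open triangles mark PBMC where the assay was not detected, drawn at the limit. Allogeneic GIL lay below syngeneic GIL for every member, and PBMC lay below both.

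The size of the difference in GIL depended on what the Ct values were scaled to. Relative to the microRNA reference, the 3 small RNAs used as other scalings were themselves lower in allogeneic GIL, with log2 differences of -0.82 for MammU6, -0.41 for snoRNA135 and -0.89 for snoRNA202. The controls U87 and Y1, not used for scaling, lay the other way, at 0.11 and 0.33. Over 5 other scalings miR-214 was lower by 5.88-fold to 9.61-fold and was called each time. The miR-199a arms stayed lower under every scaling, but scaled to snoRNA202 they differed by -0.49 (adjusted p = 0.580) and -0.42 (adjusted p = 0.587), and scaled to MammU6 by -0.56 (adjusted p = 0.425) and -0.49 (adjusted p = 0.527). With snoRNA202 the median of all 201 assays stood at 0.65, against -0.24 with the reference assays. Relative to that median the arms stood at -1.14 and -1.07 under either. This had to be so, since either scaling shifts every assay of an array alike, and it does not show which scaling is right. The calls of the arms were also lost without any 1 syngeneic pool (adjusted p 0.0839 to 0.121 for miR-199a-3p and 0.0540 to 0.0737 for miR-199a-5p) and without allogeneic pool 1 (0.0627 and 0.0520). Without allogeneic pool 3 miR-199a-5p lost its call (adjusted p = 0.0532). No run day held both allogeneic and syngeneic GIL, so run day and group cannot be told apart there.

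**Figure D3:**
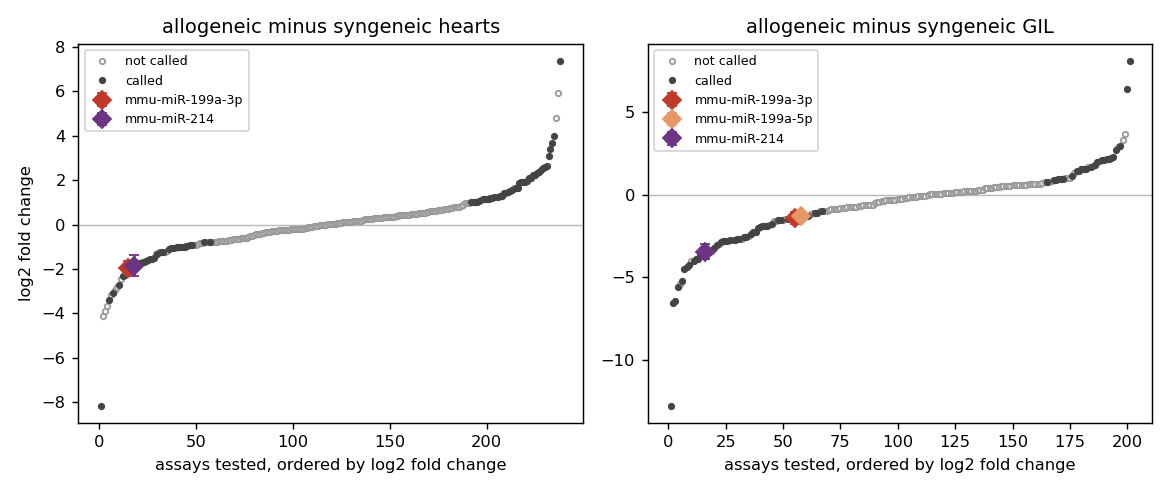
Log2 fold change of every assay tested, in rising order, for allogeneic minus syngeneic hearts (238 assays) and GIL (201 assays). Dark points were called, open points were not, and diamonds are members with their SE. miR-199a-3p and miR-214 stood side by side in hearts, at -1.94 and -1.85, and apart in GIL, at -1.38 and -3.45.

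Whether the members moved by the same amount was examined through the Ct difference of a pair on the same array, which needs no scaling. In GIL, miR-214 minus miR-199a-3p was 2.38, 2.46 and 2.66 cycles in allogeneic pools, against 0.65, -0.33 and 0.99 in syngeneic pools. miR-214 was thus later by a further 2.06 cycles in allogeneic GIL, a 4.18-fold lower ratio of miR-214 to miR-199a-3p. The groups were fully separate, with an exact two-sided permutation p = 0.1, the smallest that 3 against 3 can give (0.2 after Benjamini-Hochberg over 4 pairs tested).

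Against miR-199a-5p the picture was alike, with miR-214 minus miR-199a-5p at -3.89, -3.50 and -2.69 cycles in allogeneic GIL and -5.41, -5.73 and -5.35 in syngeneic GIL (difference 2.14 cycles, exact p = 0.1). The arms of miR-199a differed from each other by 6.26, 5.96 and 5.35 cycles in allogeneic GIL, against 6.05, 5.40 and 6.34 in syngeneic GIL. These overlapped, and their mean differed by -0.07 cycles (exact p = 0.7).

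In hearts, miR-214 minus miR-199a-3p was 1.33, -0.20 and 1.66 cycles in allogeneic pools, against 0.83, 1.19 and 1.04 in syngeneic pools and 1.51 in normal hearts. Allogeneic pool 2, the allogeneic pool with the highest miR-214 level, was the one apart. The means differed by -0.09 cycles (exact p = 1), and by 0.47 cycles without that pool (exact p = 0.1, the smallest possible with the pools left). Since that pool was singled out by its value on this same measure, the second p carries no weight. Pairs with miR-199a-5p were too few in hearts to test.

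**Figure D4:**
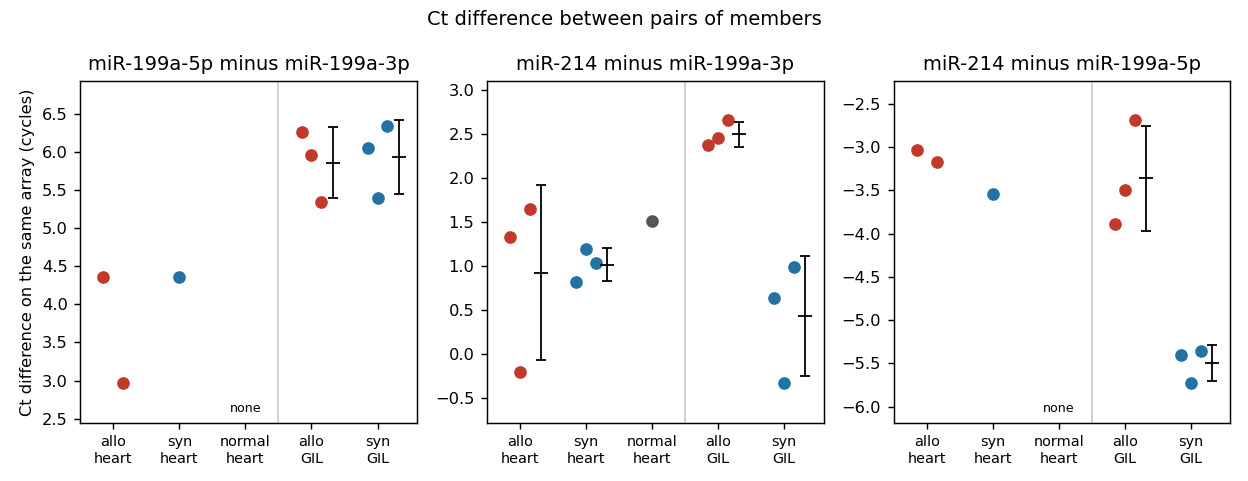
Ct difference in cycles between pairs of members on the same array, by group, with mean ± SD where a group has 3 values. A higher value means that the first-named member was lower relative to the second. miR-214 minus miR-199a-3p lay at 2.38 to 2.66 in allogeneic GIL and at -0.33 to 0.99 in syngeneic GIL, while the groups overlapped in hearts.

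The allogeneic effect in hearts (day 7) minus that in GIL (day 5) was tested as a limma interaction over the 12 transplant arrays. The tables were run apart and each was scaled to its own reference assays. The median effect over all assays tested was 0.02 in hearts and -0.24 in GIL. The interaction was -0.56 ± 0.47 log2 units for miR-199a-3p (adjusted p = 0.387). For miR-214 it was 1.60 ± 0.71 (unadjusted p = 0.0488, adjusted p = 0.122), from effects of -1.85 in hearts and -3.45 in GIL. Neither member was called, where 28.8% of 198 assays were.

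Against PBMC, the members were far higher in GIL of either kind. miR-199a-3p was the only member detected in PBMC, at Ct 28.0 and level -4.87. It was higher in allogeneic GIL by 7.21 ± 0.52 log2 units (148-fold, limma adjusted p = 2.01e-04) and in syngeneic GIL by 8.59 ± 0.53 (386-fold, adjusted p = 1.05e-04). Since miR-214 and miR-199a-5p were not detected in PBMC, their folds are lower bounds, set by the detection limit. The bounds hold only if the undetermined wells of the 1 PBMC array reflect low levels. Gaps were common in this table: of the 148 microRNA assays with a Ct under 25 on some GIL or PBMC array, 31 (20.9%) were undetermined on another. miR-214 was at least 3251-fold higher in allogeneic GIL and at least 35413-fold higher in syngeneic GIL. miR-199a-5p was at least 317-fold higher in allogeneic GIL and at least 785-fold higher in syngeneic GIL. These entered the test only through their detection in GIL, so their calls carry no weight, and miR-199a-3p was the 1 member with a measured difference. It was called in both comparisons, where 58.0% of 212 (allogeneic GIL) and 60.7% of 229 assays (syngeneic GIL) were called. Both rest on the same PBMC array.

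Heart muscle and endothelial markers were likewise higher in GIL than in PBMC. Of the 6 heart muscle assays 3 could be tested. Those detected in PBMC too, miR-1 and miR-133a, were higher by 9.24 ± 0.88 and 9.22 ± 0.58 log2 units in allogeneic GIL and by 7.58 ± 0.89 and 7.55 ± 0.59 in syngeneic GIL, and were called. miR-133b was not detected in PBMC and was tested only because GIL held it. Both endothelial assays were detected on every array and called higher in both comparisons. The 6 heart muscle assays summed to 5.18 to 6.45 on the log2 level scale in allogeneic GIL (3 to 5 detected) and 3.78 to 4.47 in syngeneic GIL (4 detected), against -3.67 in PBMC (2 detected). The endothelial assays miR-126-3p and miR-126-5p summed to 4.55 to 5.32 in allogeneic GIL and 5.79 to 6.42 in syngeneic GIL, against 0.28 in PBMC. For the smooth muscle assays miR-143 and miR-145 the sums were 5.02 to 5.80 and 4.75 to 6.17, against -2.45 in PBMC. The 18 stroma-linked assays described below, which include both, went either way. Their sums were 6.96 to 7.27 and 6.95 to 7.42, against 7.55 in PBMC. Relative to PBMC, miR-145 stood at 8.10 in allogeneic and 8.26 in syngeneic GIL, and miR-29c at -0.89 and -2.35. The 5 leukocyte assays, all detected everywhere, summed to 5.91 to 6.53 in allogeneic GIL and 5.27 to 6.07 in syngeneic GIL, against 8.53 in PBMC. They did not all go 1 way. miR-155 stood above PBMC, at 2.59 ± 0.37 in allogeneic GIL and 0.62 ± 0.38 in syngeneic GIL. The others stood at -3.32 to -1.65 and at -3.45 to -2.49. The part of other cells of the graft in the levels of miR-199a and miR-214 in GIL was not tested. In pooled bulk RNA, fewer cells of a type and less RNA per cell cannot be told apart.

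Between allogeneic and syngeneic GIL, by contrast, heart muscle assays moved opposite to the members. miR-133a, a muscle microRNA, rose by 1.67 ± 0.40 (adjusted p = 0.0247) and miR-133b by 1.54 ± 0.47 (adjusted p = 0.0478), 2 of 3 heart muscle assays tested, and 0 fell. None of the 3 was called when scaled to snoRNA135 with snoRNA202, or without syngeneic pool 1 or 2, and 1 to 3 rose without any 1 of the other pools. Of the endothelial assays, miR-126-3p fell by 1.07 ± 0.32 (adjusted p = 0.0478), a call lost under each of the 5 other scalings and without any 1 of the 6 pools, and miR-126-5p stood at -0.24. Of 5 leukocyte assays 2 rose, miR-155, induced on lymphocyte activation (1.98 ± 0.26), and miR-142-3p, made in blood cells (1.60 ± 0.34), with 1 to 3 rising without any 1 pool. miR-223 lay the other way, at -0.83 ± 0.66, and was not called.

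In hearts the markers ran otherwise. Of 6 heart muscle assays 5 fell, and their summed level was 9.13 to 9.47 in allogeneic hearts and 10.5 to 11.3 in syngeneic hearts. Both endothelial assays fell too, miR-126-3p by 1.64 ± 0.27. Of 5 leukocyte assays 2 rose, but none when scaled to MammU6 and 1 without any 1 pool other than allogeneic pool 2. miR-150 lay the other way, at -0.49. With the reference taken as a median, 1 leukocyte assay was called higher and 1 lower. Of the erythroid assays miR-451 rose by 3.99 ± 0.71 and miR-486 stood at -0.16. Summed leukocyte levels were 7.83 to 8.26 in allogeneic hearts and 7.11 to 7.57 in syngeneic hearts. The part of these shifts in the lower miR-199a-3p and miR-214 of allogeneic hearts was not tested.

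Of 21 other microRNAs linked to stroma, fibroblasts and smooth muscle, 18 had an assay. In hearts 1 rose and 2 fell of the 18 tested, where 32.4% of all assays were called, with a median log2 fold change of -0.23, against 0.02 over all 238 assays. The riser was miR-21, which is induced in stressed heart fibroblasts, at 1.55 ± 0.21 (adjusted p = 0.00437). Lower in allogeneic hearts were miR-322 (-1.12 ± 0.24) and miR-145, of vascular smooth muscle (-1.03 ± 0.24). Scaled to MammU6 none of the 18 was called, and none fell without syngeneic pool 2 or 3.

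In GIL 2 rose and 5 fell of 17 tested, a share near the 36.3% called over all assays, with a median of -0.38, against -0.24 over all 201 assays. miR-29c, which targets collagen messages, rose by 1.46 ± 0.23 and miR-27b by 0.78 ± 0.24. Lower in allogeneic GIL were miR-503 (at least 22.3-fold, with 0 of 3 allogeneic arrays and all syngeneic arrays detecting it, through which alone it was tested), miR-31 (-2.03 ± 0.35), miR-218 (-1.54 ± 0.28), miR-125b-5p (-1.32 ± 0.30) and miR-152 (-1.07 ± 0.29). Leaving out 1 pool at a time, 1 or 2 rose and 1 to 5 fell, with 1 falling without syngeneic pool 3, 2 without syngeneic pool 2 and 3 without allogeneic pool 1 or 3. Scaled to MammU6 or to snoRNA135 with snoRNA202, 1 rose and 1 fell. With MammU6 the median turned to 0.44, against 0.58 over all assays.

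**Figure D5:**
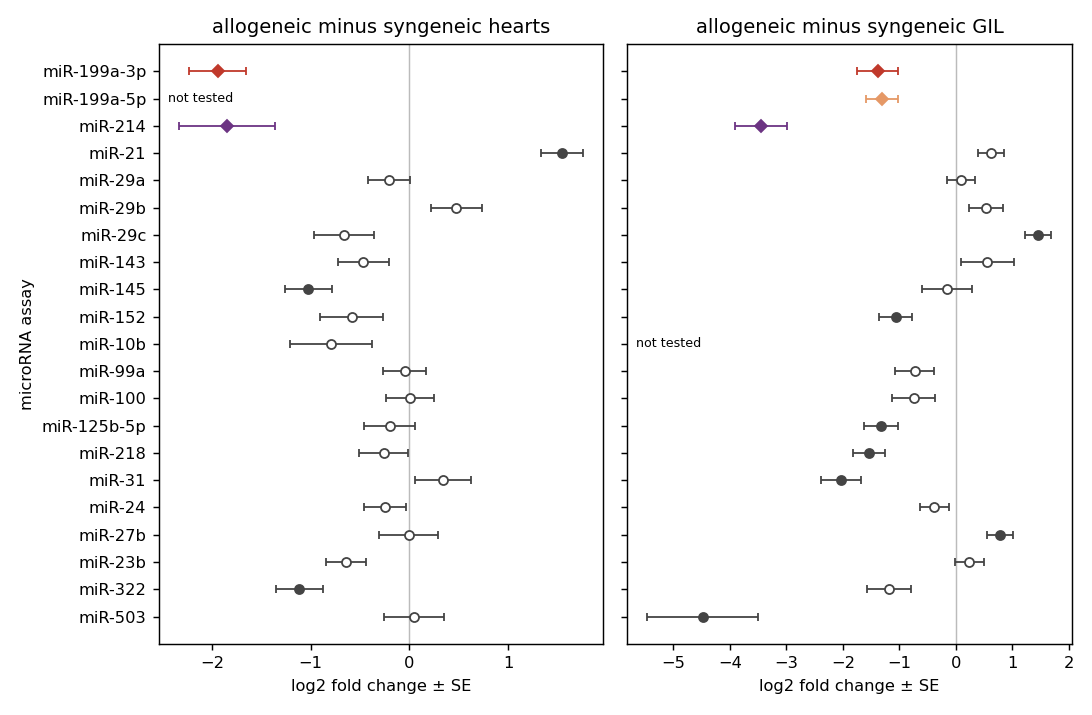
Log2 fold change ± SE, allogeneic minus syngeneic, of the 3 members (diamonds) and 18 other stroma-linked microRNAs (circles) in hearts and in GIL. Filled symbols were called, open ones were not, and assays not tested are marked. miR-21 lay at 1.55 in hearts, opposite to miR-199a-3p and miR-214, and miR-503 and miR-31 lay lowest of the circles in GIL.

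Across arrays, the levels of the members followed each other. miR-214 and miR-199a-3p correlated with r = 0.83 over the 7 heart arrays and 0.85 over the 6 transplant arrays. In GIL and PBMC r was 0.99 over 7 arrays and 0.93 over the 6 GIL arrays. miR-199a-5p and miR-199a-3p correlated with r = 0.99 and 0.87. These points share groups, cards and the scaling of each array, and the PBMC array lies far from the rest.

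The assay most like miR-199a-3p in hearts was miR-224 (r = 0.94 over 7 arrays), which was also the most like miR-214 (r = 0.95), against a median r of 0.02 and 0.03 over the 208 other assays. miR-434-3p was also among the 5 most alike for both (r = 0.93 and 0.92). Next to miR-214 stood miR-136, miR-411 and miR-379 (r = 0.93 to 0.85), and next to miR-199a-3p the heart muscle microRNA miR-208b (r = 0.94), rno-miR-190b and miR-135a. Of these 8 assays 5 fell in allogeneic hearts, among them miR-224 (-1.75 ± 0.27) and miR-136 (-1.59 ± 0.34). Over all 238 assays tested, 36 were called lower. The 8 were chosen for likeness to members that were lower on the same arrays, so their falls carry no weight.

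In GIL and PBMC the likeness was led by miR-411 for both arms of miR-199a and by miR-127 for miR-214, each with r of 1.00 over 7 arrays, against a median r of -0.64 to -0.62 and a 90th percentile of 0.92 to 0.94 over the 136 other assays. The 7 arrays include PBMC, which lies far from the rest and where miR-214 and miR-199a-5p stand at the detection limit. Over the 6 GIL arrays r with miR-411 was 0.98 for miR-199a-3p and 0.93 for miR-199a-5p, and r of miR-214 with miR-127 was 0.98. For the other assays so chosen the 6-array r fell as low as 0.66 for miR-199a-3p (miR-126-5p), 0.39 for miR-199a-5p (miR-145) and 0.90 for miR-214 (miR-126-3p). miR-127 was lower in allogeneic GIL (-2.69 ± 0.43, 6.47-fold), as were miR-411 (-1.97 ± 0.38), miR-337-5p (-2.25 ± 0.38) and miR-218. Over all 201 assays tested, 48 were called lower. These falls carry no weight either, since the assays were chosen for likeness to the members on the same arrays. miR-126-3p was among the 5 most alike for all 3 members. Of the 8 assays so named in each table, at least 4 in hearts and 3 in GIL lie on chromosome 12. At least 13.8% of the 210 and 5.11% of the 137 reference assays lie there. Assays not matched to a chromosome by name counted as lying elsewhere, among them rno-miR-190b, miR-126-3p, miR-126-5p and miR-145. The shares were not tested against each other. On chromosome 12 miR-127, miR-136, miR-337, miR-379, miR-411 and miR-434 belong to the imprinted Dlk1-Dio3 region.

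To place all 6 groups on a scale, levels were also computed against the 133 microRNA assays detected on all 14 arrays. The tables were run apart, so this order is a description. On it miR-199a-3p stood at 2.32 ± 0.62 in allogeneic GIL and 3.69 ± 0.20 in syngeneic GIL (SD, n = 3), against -4.90 in PBMC, and at 0.12 ± 0.46 in allogeneic hearts and 2.20 ± 0.30 in syngeneic hearts, against 1.44 in normal hearts. Syngeneic GIL thus lay highest and PBMC lowest, and allogeneic GIL and syngeneic hearts overlapped. For miR-214 the level was -0.17 ± 0.74 in allogeneic GIL and 3.25 ± 0.50 in syngeneic GIL, with PBMC not detected, and -0.80 ± 0.87 in allogeneic hearts and 1.18 ± 0.47 in syngeneic hearts, against -0.08 in normal hearts. Syngeneic GIL again lay highest and syngeneic hearts next, and the ranges of allogeneic GIL and allogeneic hearts overlapped and held the normal value. On the raw Ct, by contrast, syngeneic hearts stood ahead of syngeneic GIL for both, with miR-199a-3p at Ct 18.4 to 20.0 and 21.0 to 22.3. miR-199a-5p stood at -3.53 ± 0.36 in allogeneic GIL and at -2.24 ± 0.29 in syngeneic GIL.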

How the data were processed

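The labels describe RNA isolation with a mirVana kit, pooling of 3 animals per array, Megaplex reverse transcription and preamplification, and TaqMan rodent microRNA cards on a 7900HT instrument. Values were exported by the authors with SDS 2.4, per the file headers. The deposited Ct has no normalization. The deposited delta Ct, an inverted log2 value, was found to be the well's Ct less the snoRNA202 Ct of its array, with 40 standing for undetermined wells, and served only as a check. The relative quantity deposited by the authors is a ratio to the normal array of the table, on the same snoRNA202 basis. Baseline and threshold settings are not given in the sources used here. Columns of other samples numbered 0, and 1 well whose sample name differed from its card (let-7b) was left out.

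Ct values undetermined or at least 35 were set to 35, and minus Ct was scaled to the array's mean Ct over those microRNAs that all 7 arrays of a table detected. A comparison took in an assay if either group had it detected on all arrays. Levels were compared with lmFit and eBayes of limma 3.58.1 (R 4.3.3, two-sided), with the 3 groups of a table in 1 fit and Benjamini-Hochberg adjustment over all assays tested, so miR-199a-5p had no test in hearts. Where a group had no array with detection, the fold is a bound whose SE holds none of its own variation. Ct differences of pairs were compared with an exact permutation test over pools. The number of arrays limits the precision. Nothing says that pools came from separate experiments, so p-values measure the spread between these pools. Run day was read from the files as the day a card was run. No replicate arrays were duplicates, the SD of the Ct difference between them being 0.464 to 0.845.

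The members, the lists of stromal and cell type microRNAs, the tests and the other settings were chosen with earlier results of these data known. The text names the members, listed assays called between allogeneic and syngeneic groups, and for each member the 5 assays detected on all 7 arrays with the highest correlation. The markers miR-126-5p, miR-486, miR-143, miR-150 and miR-223 were named after their values were seen, also where uncalled. The fit was tested on simulated data. Sequences and coordinates are RefSeq's, GRCm38.p6, and the CArG box was searched after the promoter had been read.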

Additional observations from a re-analysis of the deposited data

How the results depend on the processing

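All differences here are log2, allogeneic minus syngeneic unless stated, and the cause of a change was not tested unless named. miR-214 in GIL kept its direction and its call under all 19 other settings (-3.73 to -2.55), and miR-199a-3p in hearts lost its call only with run day as a fixed block. The interaction for either member was never called. With marked wells left out, miR-199a-5p in GIL had no allogeneic value and gave no result.

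Scaled to MammU6, miR-214 in hearts stood at -1.97, miR-199a-3p in GIL at -0.56 and miR-199a-5p in GIL at -0.49, and assays called numbered 34 in hearts, 24 between syngeneic and normal hearts, 58 between allogeneic and normal hearts and 15 in the interaction. Scaled to snoRNA135 with snoRNA202, the arms in GIL stood at -0.73 (miR-199a-3p) and -0.66 (miR-199a-5p), and calls numbered 31 in GIL, 62 between allogeneic GIL and PBMC and 27 in the interaction. Scaled to snoRNA202, miR-214 stood at -1.69 in hearts and, against normal hearts, turned to 0.0053 (adjusted p = 0.995) in allogeneic hearts. The arms in GIL stood at -0.49 and -0.42, with 48 calls in GIL, 63 between allogeneic GIL and PBMC and 27 in the interaction. With the reference taken as a median, miR-199a-3p in GIL stood at -1.16, and by quantiles the arms stood at -1.24 and -0.95, all uncalled. The main counts were 77 (hearts), 46 (syngeneic minus normal hearts), 125 (allogeneic minus normal hearts), 73 (GIL), 123 (allogeneic GIL minus PBMC) and 57 (interaction).

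With no detection filter, which tests all assays, miR-214 in hearts (-1.85) and the arms in GIL (-1.38 and -1.31) kept their values and lost their calls, with 42 calls in hearts, 35 in GIL and 31 in the interaction. With assays detected on all 7 arrays only, miR-199a-3p alone was left to test against PBMC, so 1 member was called in each such comparison, and the interaction had 36 calls. In allogeneic against normal hearts 1 member was called, but 0 under the 3 control scalings, quantiles, a limit at Ct 38, no filter, the replicate block, and without allogeneic pool 1 or 2.

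Deviations of same-numbered pools correlated with r of -0.29 to 0.12 in hearts and -0.16 to 0.23 in GIL. Pools of different number gave -0.37 to 0.36 and -0.30 to 0.09. With so few pools this cannot decide whether the numbers pair them. With the replicate block, miR-214 in hearts (-1.85, adjusted p = 0.0854) and miR-199a-3p in GIL (-1.38, adjusted p = 0.0871) were not called, and calls numbered 46 in hearts, 28 between syngeneic and normal hearts, 66 between allogeneic and normal hearts, 69 between allogeneic GIL and PBMC and 31 in the interaction. Run day as a fixed block gave -1.81 for miR-199a-3p and -2.30 for miR-214 in hearts, uncalled, with 2 calls. It could not be fitted elsewhere, since run day and group share no day.

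Leaving out 1 pool at a time, miR-214 in hearts ranged from -2.33 to -1.51, miR-199a-3p in GIL from -1.64 to -0.94 and miR-199a-5p in GIL from -1.52 to -1.12. Assays called ranged from 42 to 81 in hearts and from 40 to 73 in GIL, and members called in allogeneic against normal hearts from 0 to 1. The Ct difference of miR-214 and miR-199a-3p between heart groups ranged from -0.46 to 0.47 cycles and turned without allogeneic pool 2. That of the miR-199a arms between GIL groups ranged from -0.34 to 0.18 and turned without syngeneic pool 3 (0.13) or allogeneic pool 3 (0.18). With only 3 pools per group and 1 normal array, and allogeneic GIL pool 3 late by several cycles, smaller differences could not be resolved.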
